A study of Mus musculus with 12 samples.

Results

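The interferon regulatory factor (IRF) family and the IRF2-binding proteins were followed in J774A.1 cells, a mouse macrophage line, through 10 genes: Irf1, Irf2, Irf3, Irf4, Irf5, Irf7 and Irf8, which encode DNA-binding factors, and Irf2bp1, Irf2bp2 and Irf2bpl, which encode cofactors. The members were the rows bearing these gene symbols. All 10 were listed both in the unstimulated count table, which held 17544 genes, and in the LPS table, which held 17874, and all 10 passed the filter on low counts in every comparison. RNA-seq covered 12 libraries in 4 groups of 3: WT or ACAT1 KO cells, each left unstimulated or given 100 ng/ml lipopolysaccharide (LPS) for 2 h. The KO lines carried a Cas9 guide against exon 4 of Acat1, which encodes the mitochondrial acetyl-CoA acetyltransferase; the WT lines carried Cas9 without a guide, and both were sorted and grown as clonal lines, with 3 lines per genotype. Differences between 2 sets of 3 clonal lines include what the clones differ in besides Acat1.

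IRF proteins share an amino-terminal DNA-binding domain that contacts GAAA repeats, the core of the interferon-stimulated response element (ISRE). LPS is sensed by TLR4; through the adaptor TRIF and the kinases TBK1 and IKKε it activates IRF3, and through MyD88 it activates IRF5, after which interferon-β acts back on the cell and raises genes such as Irf7. IRF8 and IRF4 bind DNA with partners such as PU.1 and BATF proteins and shape the myeloid and lymphoid lineages, whereas IRF2 competes with IRF1 for shared sites. IRF2BP1, IRF2BP2 and IRF2BPL carry a zinc finger and a RING domain, and IRF2BP1 and IRF2BP2 were described as corepressors bound by IRF2. The comparisons here concern mRNA levels and say nothing of phosphorylation or nuclear entry, through which IRF3, IRF5 and IRF7 are switched on.

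The libraries held 56948593 to 167280149 counts. Acat1 mRNA stood at 65 to 108.4 counts per 1000000 counts of the library (CPM) in the 6 WT libraries and at 18.5 to 28.9 CPM in the 6 KO libraries, with no overlap. All 10 macrophage markers examined were present, with Lyz2 at 5020 to 7413 CPM and the scarcer Mrc1 at 2.26 to 13.2 and Marco at 0.642 to 68.4 CPM. The T cell marker Cd3e and the epithelial marker Epcam were absent from both tables, and the fibroblast marker Col1a1 was listed only after LPS. Listed in both states were 1 of 4 T cell markers (Lck, 5.19 to 10.99 CPM) and 1 of 3 fibroblast markers (Pdgfra, 1.14 to 12.95 CPM). For B cells it was 1 of 3 (Cd79a, at most 0.938 CPM), for endothelial cells 2 of 3 (Pecam1 and Cdh5, at most 2.13 CPM) and for epithelial cells 0 of 3. The libraries of WT line 1, WT line 2 and KO line 2 in the unstimulated state stood apart: 0.0251%, 0.0349% and 0.0397% of their counts lay on 73 antisense genes, against at most 0.00747% in the other libraries. Without these 3 libraries WT line 3 is the only unstimulated WT library. Values of that fit are given below for some members as effect sizes, without p-values or calls.

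Promoter sequences of all 10 genes were found in RefSeq (GRCm38.p6). The 250 bases before each start were searched on both strands for the ISRE core GAAANNGAAA, for the STAT-binding GAS element TTCNNNGAA and for the NF-kB consensus. The promoters shown are those of Irf1 and Irf8, which moved in opposite directions after LPS and both hold GAS matches, and that of Irf2, which alone among the 10 held an ISRE core and whose mRNA passed the test in none of the comparisons. Capitals mark the matches. Irf1 lies at chr11:53770014-53778374 on the plus strand, Irf8 at chr8:120736358-120756694 on the plus strand and Irf2 at chr8:46739732-46847458 on the plus strand.
Irf1 (chr11:53769764-53770013, plus strand): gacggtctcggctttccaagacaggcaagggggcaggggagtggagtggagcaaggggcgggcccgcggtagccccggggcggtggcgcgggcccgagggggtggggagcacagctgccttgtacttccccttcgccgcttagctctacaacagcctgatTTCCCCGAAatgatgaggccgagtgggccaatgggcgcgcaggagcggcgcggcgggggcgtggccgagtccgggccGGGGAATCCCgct
Irf8 (chr8:120736108-120736357, plus strand): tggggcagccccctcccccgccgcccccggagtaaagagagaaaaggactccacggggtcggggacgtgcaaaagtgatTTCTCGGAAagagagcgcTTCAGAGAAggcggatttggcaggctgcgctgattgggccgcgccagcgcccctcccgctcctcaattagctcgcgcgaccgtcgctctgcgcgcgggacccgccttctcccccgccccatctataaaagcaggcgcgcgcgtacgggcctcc
Irf2 (chr8:46739495-46739731, plus strand): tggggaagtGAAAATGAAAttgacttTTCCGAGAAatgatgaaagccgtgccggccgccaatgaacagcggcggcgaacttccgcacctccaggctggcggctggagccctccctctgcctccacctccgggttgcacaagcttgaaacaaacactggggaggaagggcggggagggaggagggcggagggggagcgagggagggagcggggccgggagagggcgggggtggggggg
The Irf1 window held a GAS match 90 bases before the start and an NF-kB match 13 bases before it, the Irf8 window held 2 GAS matches at 171 and 153 bases, and the Irf2 window held the ISRE core at 241 bases and a GAS match at 224 bases; an NF-kB match of Irf2 at 17 bases ran into its annotated exon and is not printed. Irf2bp1 held a GAS match at 59 bases. None of the 3 motifs was found in the windows of Irf3, Irf4, Irf5, Irf7, Irf2bp2 and Irf2bpl. Of 32851 RefSeq windows of the same length, 2.98% held the ISRE core, 7.02% the GAS element and 3.9% the NF-kB consensus. These matches describe letters only.

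Before stimulation, Irf5, Irf2bp2 and Irf8 were the most abundant members in both genotypes when CPM was divided by exon length in kb, all annotated transcripts merged. In WT cells Irf5 stood at 53.7 ± 5.36 CPM per kb (SD, n = 3), Irf2bp2 at 39.6 ± 2.80 and Irf8 at 22.6 ± 0.689. Irf7 followed at 14.1 ± 3.48 CPM per kb; its merged exons span the whole gene, so this scale understates a spliced Irf7 mRNA. Irf3, Irf1 and Irf2bp1 came next, between 8.40 and 10.0 CPM per kb; the gaps from Irf3 to Irf1 and from Irf1 to Irf2bp1 lay within the SD of the libraries. Irf2, at 6.43 CPM per kb, and Irf2bpl, at 6.24, did not differ beyond their spread, and Irf4 was lowest at 0.230 ± 0.020. In unstimulated KO cells Irf7 dropped from the fourth to the eighth place of this order, at 5.65 ± 1.86 CPM per kb, where it was not separated from Irf2 and Irf1 beyond the SD. After LPS the order was led in both genotypes by Irf5, Irf1 and Irf7. In WT cells they stood at 190.8 ± 18.6, 161.9 ± 29.7 and 78.8 ± 14.8 CPM per kb, and the gap from Irf5 to Irf1 lay within the SD. In KO cells they stood at 201.2 ± 16.1, 170.9 ± 25.2 and 81.4 ± 13.1. The sum of the 7 IRF genes was 459.2 to 555.1 CPM in the 6 unstimulated libraries and 1367 to 1833 CPM after LPS. The sum of the 3 IRF2-binding protein genes went the other way, from 225.2 to 269 CPM in the unstimulated libraries to 97.4 to 112.8 CPM in WT and 56.6 to 58.4 CPM in KO libraries after LPS, so that the genotypes overlapped in this sum before LPS and were apart after it.

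**Figure D1:**
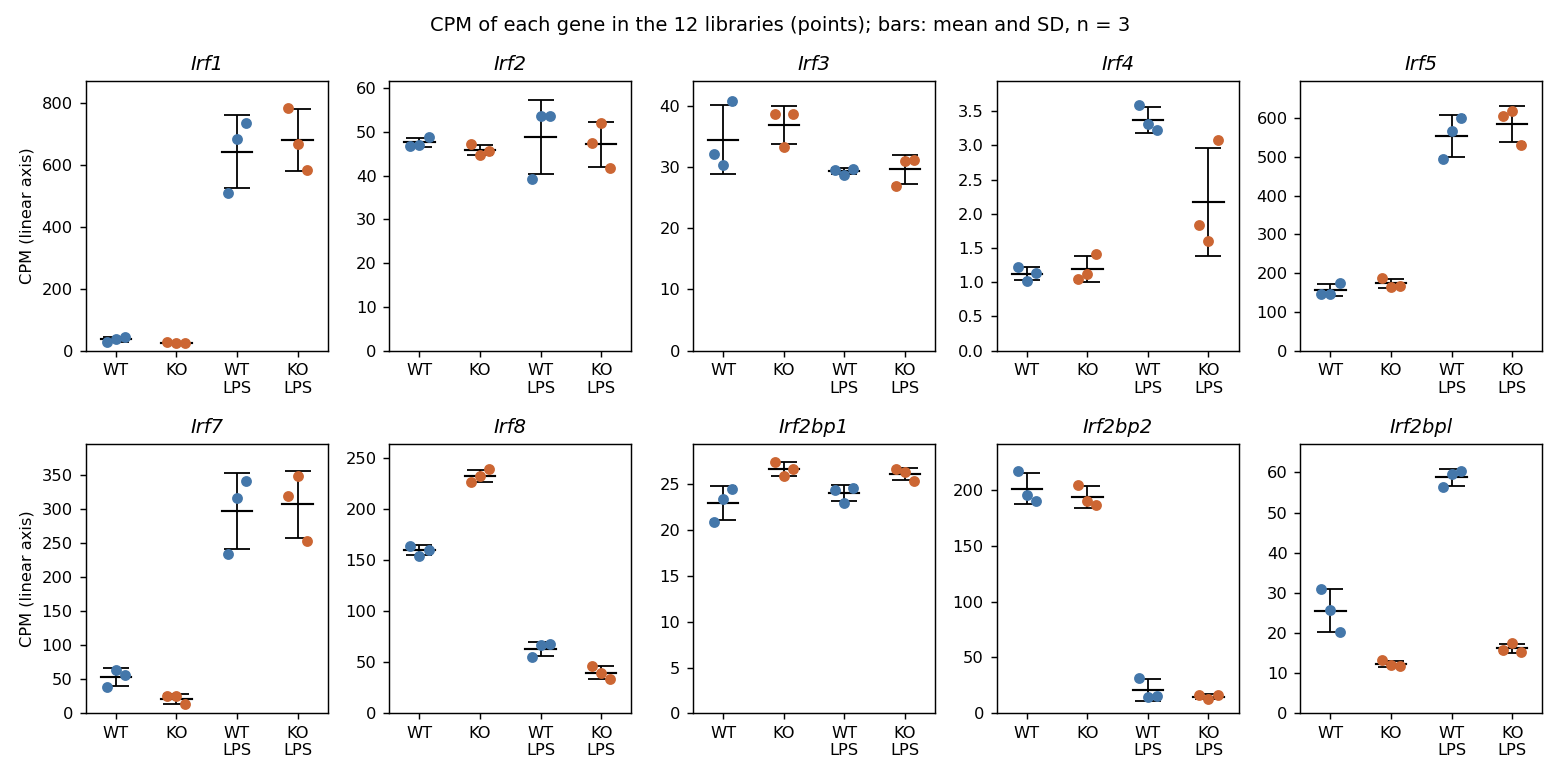
CPM of each gene (vertical axes, linear, from 0) in the 12 libraries, 1 panel per gene; blue points are WT lines, orange points ACAT1 KO lines, and black bars the mean and SD of 3 libraries. Irf8 is higher in the 3 KO libraries before LPS and lower in them after it, and Irf2bpl is lower in KO libraries in both states.

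The comparison of ACAT1 KO with WT cells within each state asked which IRF genes differ with the loss of the enzyme. Unstimulated, Irf8 was higher and Irf2bpl lower in KO cells; these 2 of the 10 genes passed an adjusted p of 0.05, against 1.91% of the 16440 genes tested (edgeR quasi-likelihood test, 314 genes). Irf1 and Irf7, both interferon-inducible activators, had lower levels in all 3 KO libraries without passing. In bulk RNA, fewer cells expressing a gene and less of its RNA per cell cannot be told apart. The median log2 fold change was 0.02 over the 10 members and 0.00 over all genes. After LPS, Irf8 and Irf2bpl again passed, now both lower in KO cells, 2 of 10 members against 15.1% of 16483 genes (2481 genes), with a median of 0.00 over the members and 0.00 over all genes. Of all genes called after LPS, 39.4% were higher in KO cells; with offsets for gene length and GC content this share was 51.2%.

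**Figure D2:**
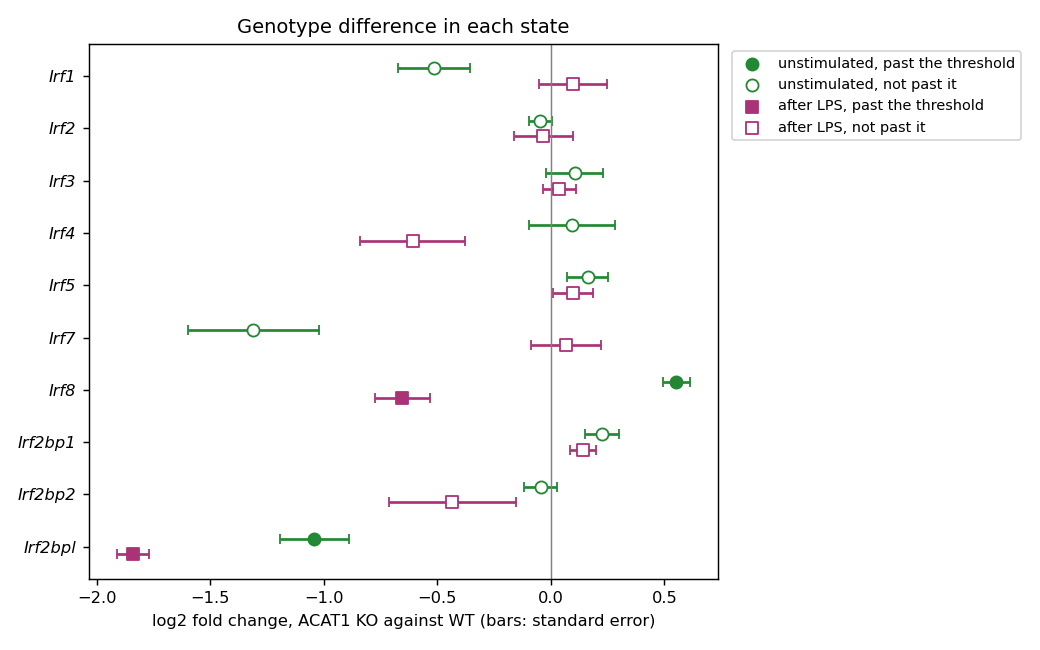
Log2 fold change of each gene between ACAT1 KO and WT cells (horizontal axis; bars: standard error of the fit, 3 against 3 libraries), unstimulated (green circles) and after LPS (purple squares); filled symbols passed an adjusted p of 0.05. Irf8 lies at 0.55 before LPS and at -0.65 after it, and Irf2bpl at -1.04 and -1.84.

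The LPS response was read within each genotype from a fit of all 12 libraries. In WT cells 7 of the 10 genes changed, Irf1, Irf4, Irf5, Irf7 and Irf2bpl upward and Irf8 and Irf2bp2 downward, against 57.4% of 16535 genes. In KO cells the same 7 genes changed in the same directions and Irf3 was lower as well, 8 of 10 against 60.7% of 16535 genes. These counts lie near the share of all genes that LPS changed. The members' median log2 fold change was 0.63 in WT and 0.22 in KO cells, where the medians of all genes were -0.02 and -0.03. Upper-quartile scaling moved the median of all genes to -0.23 in WT and -0.18 in KO cells, and the share of called genes that were higher from 51.1% to 35.2% and from 48.5% to 37.4%. Under that scaling the 5 increases and 2 decreases in WT cells kept their directions and calls, and in KO cells all 8 kept their directions and all but Irf2bpl their calls.

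**Figure D3:**
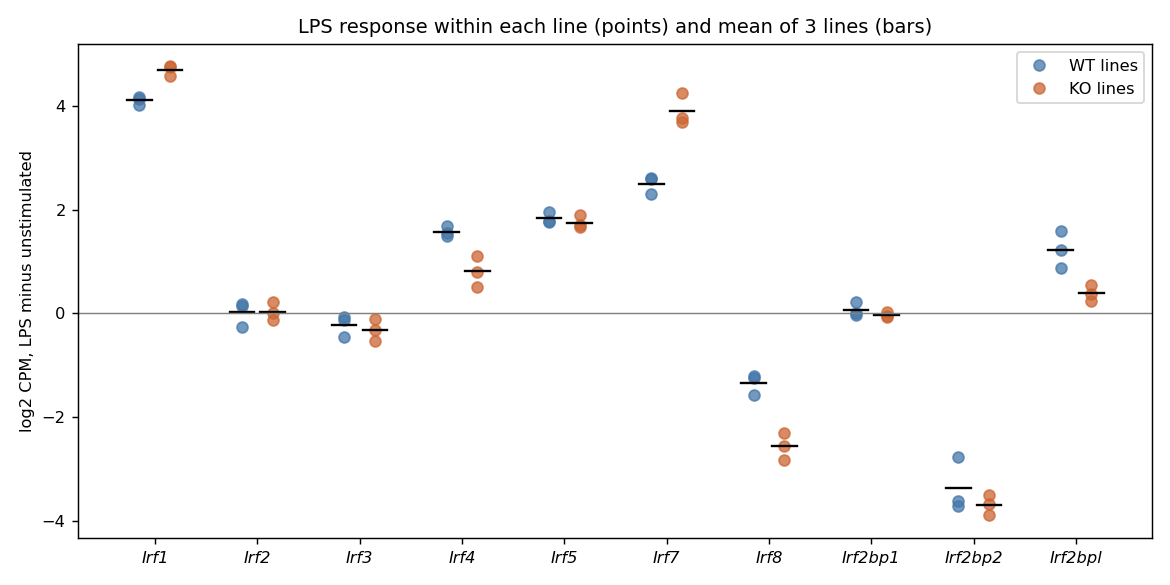
Change of each gene's log2 CPM from the unstimulated to the LPS library of the same number, taken as the same line (vertical axis, blue WT, orange KO). Each point is a line and black bars are the mean of 3 lines. The 3 KO lines lie below the 3 WT lines for Irf4, Irf8 and Irf2bpl and above them for Irf1 and Irf7.

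Irf1, an activator of major histocompatibility complex class I and other immune genes, had the largest response of the family. Unstimulated CPM was 29.4, 38.2 and 45.4 in WT lines 1 to 3 and 29.0, 24.96 and 24.7 in KO lines 1 to 3. The KO libraries all lay lower, although the highest of them was close to the lowest WT library (log2 fold change -0.51 ± 0.158 SE, adjusted p = 0.147); by DESeq2 the difference passed (adjusted p = 0.0146). After LPS the levels were 510.4, 686 and 735 CPM in WT and 784.5, 669.7 and 584.8 CPM in KO lines, which overlapped (log2 fold change 0.10 ± 0.148, adjusted p = 0.695). The response was 17.1-fold in WT cells (log2 4.09 ± 0.193) and 25.9-fold in KO cells (log2 4.69 ± 0.198), both past the test. Within lines the log2 increase was 4.02 to 4.17 in WT and 4.56 to 4.75 in KO cells, without overlap. The difference of responses was 0.60 on the log2 scale and did not pass (SE 0.242, adjusted p = 0.465); with lines paired by number it was 0.59 and passed (SE 0.0823, adjusted p = 0.0151).

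Irf7, which drives the late, amplifying phase of type I interferon (T1IFN) production, showed a wider gap between genotypes before LPS. The unstimulated levels were 38.7, 64.3 and 56.9 CPM in WT and 24.97, 25.8 and 13.3 CPM in KO lines. All KO libraries lay under all WT libraries, a 2.48-fold difference (log2 fold change -1.31 ± 0.289, unadjusted p = 0.00281, adjusted p = 0.0766). After LPS no gap was left to measure, with 234.6, 317 and 341.3 CPM in WT and 320.2, 349.2 and 252.9 CPM in KO lines (0.07 ± 0.155, adjusted p = 0.809). The rise was accordingly 5.59-fold in WT (log2 2.48 ± 0.265) and 14.4-fold in KO cells (log2 3.85 ± 0.282). In every KO line the log2 increase, 3.68 to 4.25, exceeded that of every WT line, 2.30 to 2.60. This difference of 1.37 did not pass (SE 0.358, adjusted p = 0.173), whereas with lines paired by number it was 1.40 and passed (SE 0.155, adjusted p = 0.00708). By DESeq2 both the unstimulated difference (-1.31, adjusted p = 8.51e-06) and that of responses (1.38, adjusted p = 0.0260) passed. Irf9, the DNA-binding subunit of the interferon-induced ISGF3 complex, showed smaller values in the same directions as Irf7: -0.35 ± 0.114 unstimulated (adjusted p = 0.168) and 0.08 ± 0.0531 after LPS (adjusted p = 0.373), with LPS responses of 1.42 in WT and 1.83 in KO cells that both passed.

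Irf5, a MyD88-linked inducer of inflammatory cytokines, rose alike in both genotypes. WT lines went from 147, 147 and 174 CPM to 494.7, 567.4 and 600.4 CPM, and KO lines from 187.4, 165.5 and 168.1 CPM to 605.9, 616.9 and 531 CPM. The increase was 3.55-fold in WT and 3.37-fold in KO cells. The responses differed by -0.08 on the log2 scale (SE 0.136, adjusted p = 0.959), and the genotypes overlapped in both states. On the other strand, 411 exon bases of Irf5 are shared with Tnpo3.

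Irf3, which is present in resting cells and activated by phosphorylation, varied little. Its levels were 30.2 to 40.8 CPM in unstimulated WT, 33.2 to 38.7 in unstimulated KO, 28.7 to 29.7 in WT after LPS and 26.9 to 31.1 in KO after LPS. LPS was followed by lower levels in both genotypes without overlap of the libraries. The decrease passed in KO cells (-0.32 ± 0.107, adjusted p = 0.0235) and not in WT cells (-0.23 ± 0.107, adjusted p = 0.0825), and the difference of these responses was -0.08 (SE 0.152, adjusted p = 0.963). The call in KO cells was lost with length and GC offsets (-0.18, adjusted p = 0.175). It was also lost without KO line 1 or 3 before LPS or KO line 1 after it (adjusted p from 0.0714 to 0.0951). The WT decrease passed without WT line 2 before LPS (-0.32, adjusted p = 0.0286). Without the 3 libraries that stood apart the WT value was -0.51, read against WT line 3 alone, the highest unstimulated WT library. Irf2, the IRF1 antagonist, stayed between 39.2 and 53.7 CPM in all 12 libraries, and its log2 fold changes ran from -0.05 to 0.04 over the 5 comparisons.

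Irf8, a determinant of monocyte and dendritic cell fate that is bound to PU.1 at many macrophage enhancers, was the member whose genotype difference changed direction. Unstimulated levels were 163.9, 154.3 and 160.4 CPM in WT and 227, 232.1 and 238.8 CPM in KO lines. The KO libraries were all higher, by 1.47-fold, with little spread in either group (log2 fold change 0.55 ± 0.0579, adjusted p = 0.0175). After LPS the levels were 55.4, 67.1 and 67.6 CPM in WT and 46.1, 39.5 and 33.6 CPM in KO lines. The KO libraries were now all lower, by 1.57-fold (-0.65 ± 0.121, adjusted p = 0.0129). LPS thus lowered Irf8 by 2.52-fold in WT (log2 -1.33 ± 0.106) and by 5.86-fold in KO cells (log2 -2.55 ± 0.110). Within lines the log2 change was -1.56, -1.202 and -1.25 in WT and -2.30, -2.55 and -2.83 in KO cells, so each KO line fell further than each WT line.

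The test of this difference itself gave -1.22 (SE 0.148, adjusted p = 0.0195), the 3rd smallest p of 16535 genes; Irf8 was the only member among the 31 genes, 0.187% of those tested, whose LPS response differed between genotypes. With lines paired by number it was -1.22 with an adjusted p of 0.00840. Leaving out WT line 2 or KO line 3 before LPS, or WT line 2 or KO line 2 after it, gave -1.19, -1.199, -1.18 and -1.21 with adjusted p from 0.0512 to 0.0774. Without the 3 libraries that stood apart the value was -1.17. The unstimulated difference was 0.53 to 0.56 whichever line was left out, with adjusted p from 0.0569 to 0.0928 without any single line other than WT line 3. Without the 3 libraries that stood apart it was 0.53. The difference after LPS was -0.65 without KO line 2 (adjusted p = 0.0541) and passed without any other single line.

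Irf4, a lymphoid and alternative-activation factor, was scarce. Unstimulated levels were 1.02 to 1.22 CPM in WT and 1.05 to 1.41 CPM in KO libraries (67 to 171 counts). After LPS it reached 3.59, 3.32 and 3.23 CPM in WT and 1.84, 1.61 and 3.08 CPM in KO lines. It rose in both, 2.99-fold in WT (log2 1.58 ± 0.228) and 1.82-fold in KO cells (log2 0.87 ± 0.224). All KO libraries lay below all WT libraries after LPS, with KO line 3 close to them, and the difference did not pass (-0.61 ± 0.230, adjusted p = 0.114). Without KO line 3 it was -0.95 and passed (adjusted p = 0.0188), as it did by DESeq2 (-0.60, adjusted p = 0.0430). The responses differed by -0.72 (SE 0.316, adjusted p = 0.531).

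Irf2bpl, a single-exon gene at chr12:86880701-86884798 on the minus strand whose product has been described as a ubiquitin ligase, was lower in KO cells throughout. Unstimulated levels were 30.9, 25.7 and 20.2 CPM in WT and 13.2, 11.97 and 11.9 CPM in KO lines. The genotypes did not overlap, and the KO level was 2.06-fold lower (log2 fold change -1.04 ± 0.151, adjusted p = 0.0390). After LPS the levels were 56.4, 59.5 and 60.4 CPM in WT and 15.7, 17.5 and 15.4 CPM in KO lines. The gap widened to 3.58-fold (-1.84 ± 0.0693), the smallest p of 16483 genes (adjusted p = 5.82e-05). LPS raised the gene 2.30-fold in WT (log2 1.202 ± 0.124, adjusted p = 4.99e-06) and 1.31-fold in KO cells (log2 0.39 ± 0.124, adjusted p = 0.0166). Within lines the log2 increase was 0.87 to 1.58 in WT and 0.25 to 0.55 in KO cells. The difference of these responses, -0.81, did not pass (SE 0.174, adjusted p = 0.0981); it passed by DESeq2 (-0.80, adjusted p = 0.00133) and not with lines paired by number (-0.83, adjusted p = 0.0555). The unstimulated call was lost without any single line other than WT line 3 (-1.11 to -0.90, adjusted p from 0.0851 to 0.149), while the call after LPS held whichever line was left out. Without the 3 libraries that stood apart the unstimulated difference was -0.70. The increase in KO cells no longer passed without KO line 3 before LPS (0.36, adjusted p = 0.0525) or KO line 2 after it (0.33, adjusted p = 0.0656).

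Many other genes of chromosome 12 were also lower in KO cells. After LPS 240 of its 584 tested genes, 41.1%, were called lower and 12 higher, with a median log2 fold change of -0.28; unstimulated, 39 of 585 were called lower and none higher (10 higher at an unadjusted p under 0.05; 180 lower and 4 higher by DESeq2), with a median of -0.26. With length and GC offsets 6 genes were called lower before LPS and with a replicate block 15, and none higher. Those fits called 76 and 151 of all 16440 genes, against 314 in the main fit. At an unadjusted p under 0.05 they had 191 and 277 chromosome 12 genes lower and 11 and 10 higher. After LPS 188 to 255 were called lower over the alternatives. On the other chromosomes that carry members, 6.61% to 8.49% of genes were called lower after LPS. Less the median of its chromosome, the Irf2bpl difference was -0.78 unstimulated and -1.56 after LPS. Of 15 tested genes within 500000 bases, 1 was called lower before LPS, the circadian regulator Cipc (-0.49), and 5 after LPS, Vash1 (-1.07), Ngb (-1.15), Cipc (-0.49), Gstz1 (-0.35) and Pomt2 (-0.27). None of the 15 reached the value of Irf2bpl in either state, but Vash1 came near it before LPS. There Vash1 stood at -0.92 ± 0.339 without passing (edgeR, adjusted p = 0.205). In each state 12 of the 15 had values under 0. The part of the chromosome in the Irf2bpl difference was not tested.

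**Figure D4:**
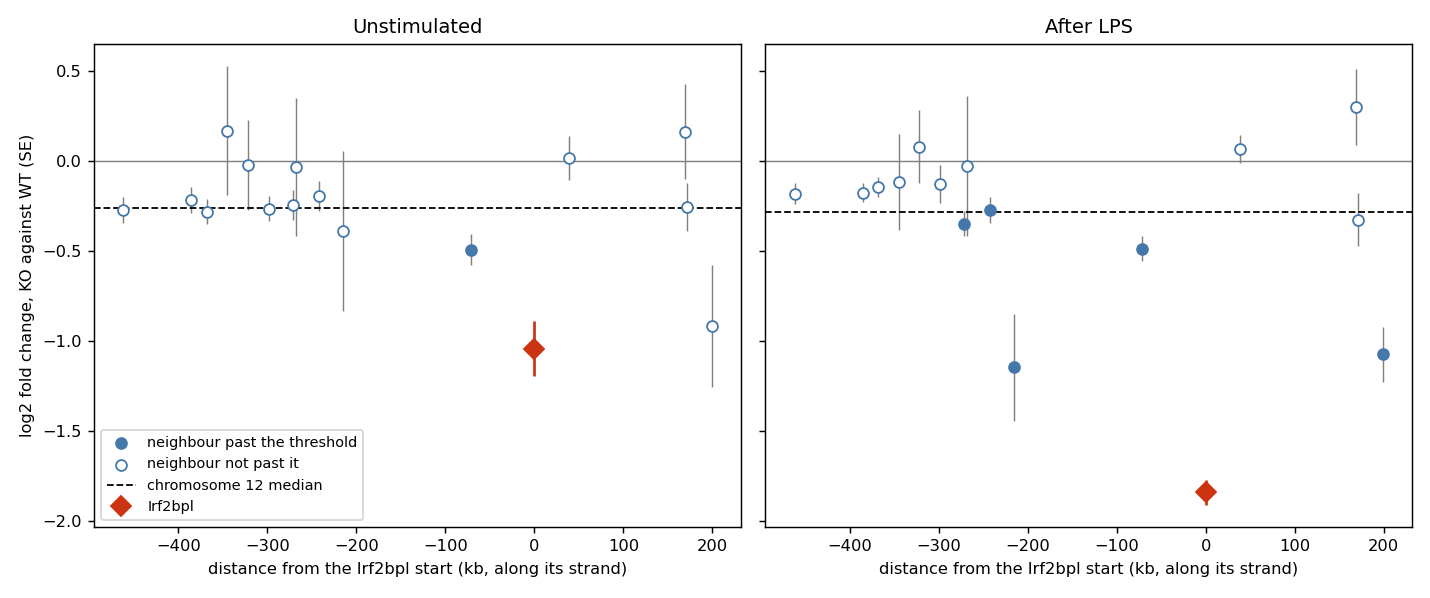
Log2 fold change between KO and WT cells (vertical axis; bars: standard error) of Irf2bpl (red diamond) and of 15 tested genes around it, against the distance of each gene's middle from the Irf2bpl start (horizontal axis, kb along its strand), unstimulated (left) and after LPS (right); filled circles passed an adjusted p of 0.05 and the dashed line is the chromosome 12 median, -0.26 and -0.28. Irf2bpl lies lowest in both states, with Vash1 (-0.92) near it unstimulated, and 5 neighbours passed after LPS.

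Irf2bp2, a corepressor at chr8:126588296-126593986 on the minus strand, fell most after LPS. WT lines went from 217.2, 195.7 and 190.3 CPM to 31.9, 14.9 and 15.5 CPM, and KO lines from 204.7, 189.6 and 186.7 CPM to 16.0, 12.8 and 16.5 CPM. The decrease was 9.72-fold in WT (log2 -3.28 ± 0.252) and 12.8-fold in KO cells (log2 -3.68 ± 0.257). WT line 1 stood above all other libraries after LPS, and the genotypes overlapped (-0.43 ± 0.280, adjusted p = 0.332). Without that library the genotype difference after LPS was 0.01 (adjusted p = 0.956). The antisense gene Gm26759 shares 1039 exon bases with Irf2bp2; it held 242, 287 and 379 counts in the 3 libraries that stood apart and 17 to 22 in the other unstimulated libraries, against at least 12826 counts of Irf2bp2. Without those 3 libraries the LPS response of Irf2bp2 was -3.23 in WT and -3.69 in KO cells.

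Irf2bp1, the remaining corepressor, stayed between 20.9 and 27.4 CPM. The KO libraries were all higher than the WT libraries in both states, 25.9 to 27.4 against 20.9 to 24.5 CPM unstimulated and 25.3 to 26.7 against 23.0 to 24.6 CPM after LPS. The differences were small and did not pass (0.23 ± 0.0760, adjusted p = 0.175; 0.14 ± 0.0590, adjusted p = 0.147); with length and GC offsets the difference after LPS passed (0.25, adjusted p = 0.0293). Its LPS responses were 0.06 in WT and -0.03 in KO cells; this gene has the highest GC content of the members, 63.6%, and with length and GC offsets both values passed as increases, 0.39 (adjusted p = 0.0190) and 0.33 (adjusted p = 0.0352). By upper-quartile scaling the KO value passed as a decrease, -0.18 (adjusted p = 0.0245), so no direction of its LPS response held over the scalings. The 3 IRF2-binding protein genes thus followed separate courses: Irf2bp2 fell in both genotypes, Irf2bpl rose in both and was lower in KO cells, and Irf2bp1 did not move beyond what the scaling set.

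Of 26 genes upstream of IRF activation, 24 were tested. For scale, here and in the lists below, edgeR called 1.91% of all genes between unstimulated genotypes and 15.1% after LPS. For the LPS responses it called 57.4% in WT and 60.7% in KO cells, and for their difference 0.187%. DESeq2 called 1721 of 16440 genes unstimulated and 334 of 16535 for the difference of responses, where edgeR with lines paired by number called 288. Unstimulated, none was higher in KO cells (5 at an unadjusted p under 0.05, 2 by DESeq2) and 2 were lower (6 by DESeq2): Tbk1, the kinase of IRF3 and IRF7 (-0.35 ± 0.0583, adjusted p = 0.0442), and Ddx58, which encodes the RNA sensor RIG-I (-0.83 ± 0.124, adjusted p = 0.0390). After LPS 4 were higher and 4 lower. Tbk1 remained lower, at 139 ± 5.27 CPM in KO against 187.8 ± 11.2 CPM in WT cells (SD, n = 3; log2 fold change -0.41 ± 0.0597, adjusted p = 0.00628), and Traf3, an adaptor for TBK1, was lower as well (-0.62 ± 0.0754, adjusted p = 0.00373). The TLR4 co-receptor Cd14 (0.40 ± 0.0615, adjusted p = 0.00736) and Ifih1, which encodes the RNA sensor MDA5 (0.75 ± 0.166, adjusted p = 0.0240), were higher. In each genotype LPS raised 17 and lowered 6 of the 24. Of all 16535 genes LPS raised 4850 and lowered 4638 in WT cells, and raised 4871 and lowered 5166 in KO cells. Ikbke, the kinase most like TBK1, rose by 2.62 on the log2 scale in WT and 2.38 in KO cells, and Myd88 by 2.51 and 2.48. By edgeR none of the 24 differed between genotypes in its LPS response, although 5 had an unadjusted p under 0.05; 2 were called by DESeq2 and 2 with lines paired by number, all with a larger value in KO cells. With length and GC offsets no gene of this list was called between unstimulated genotypes, where 76 of all 16440 genes were called. In that fit 12 genes of the list had an unadjusted p under 0.05, against 11 in the main fit.

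Of 24 partners and modifiers of IRF proteins, 22 were tested unstimulated and 23 after LPS. Stat2, the partner of IRF9, was the only gene of this list called unstimulated, at 20.5 ± 0.901 CPM in KO against 45.7 ± 10.2 CPM in WT cells (log2 fold change -1.15 ± 0.156, adjusted p = 0.0344). By DESeq2 3 genes were higher and 2 lower. After LPS 3 were higher and 4 lower in KO cells. The lower ones with the smallest p were Nfatc1 (-0.63 ± 0.0753, adjusted p = 0.00332) and Nfatc2 (-0.81 ± 0.101, adjusted p = 0.00373), calcium-regulated factors that can bind with IRF4 and IRF8, and Vgll4 (-0.98 ± 0.129, adjusted p = 0.00463); Rbck1 was higher (0.36 ± 0.0782, adjusted p = 0.0227). Nfatc1 was also the only gene of this list whose LPS response differed between genotypes (-0.62 ± 0.0957, adjusted p = 0.0383), falling from 37.4 to 19.8 CPM in WT and from 36.7 to 12.6 CPM in KO cells. That count depended on the setting: 2 genes had a larger and 3 a smaller value in KO cells by DESeq2, 2 and 2 with lines paired by number, and 4 and 3 at an unadjusted p under 0.05 by edgeR. By upper-quartile scaling none was called, where 9 genes had an unadjusted p under 0.05 and 23 of all 16535 genes were called. LPS raised 13 and lowered 4 of 22 in WT cells, and raised 12 and lowered 7 in KO cells, where 57.4% and 60.7% of all genes were called. Peli1, Trim21 and Stat2 rose in both genotypes.

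Of 32 genes known as direct IRF targets, 27 were tested for the LPS response. All 27 rose in WT and in KO cells, with median log2 fold changes of 5.16 and 5.30. By upper-quartile scaling 26 of the 27 rose in each genotype. Among all 16535 genes 4850 rose in WT and 4871 in KO cells. The list was chosen with earlier results of these data known, so these increases were not an independent test. The increase was 9.01 in WT and 9.54 in KO cells for the chemokine Ccl5, 8.71 and 9.96 for the chemokine Cxcl10, and 2.77 and 2.82 for Casp4. By edgeR none of the 27 passed the test for a different response between genotypes, where 9 had an unadjusted p under 0.05, all toward a larger increase in KO cells. With lines paired by number 8 of the 27 passed, and by DESeq2 4, in that same direction. The median difference was 0.25, against -0.04 over all genes. Unstimulated, Cybb, which encodes an NADPH oxidase subunit, was the only one of 26 called by edgeR, higher in KO cells (0.75 ± 0.130, adjusted p = 0.0464). Most targets with an unadjusted p under 0.05 had lower values in KO cells, 7 against 1, and by DESeq2 7 were called lower and 1 higher. Among these 7, singled out after their values were seen, edgeR gave -0.90 for Cxcl10 (adjusted p = 0.0741), -0.94 for Ifit1 (0.0807), -0.94 for Isg15 (0.0847), -1.01 for Rsad2 (0.0934), -1.03 for Mx1 (0.135), -0.86 for Ifit3 (0.167) and -0.57 for Gbp2 (0.0547). With length and GC offsets and with a replicate block edgeR called none, Cybb included. Between genotypes that block joined lines by number alone. The fits with the offsets and with the block called 76 and 151 of all 16440 genes. In these fits 7 and 8 targets had an unadjusted p under 0.05 with a lower value, and 1 in each with a higher value. After LPS 5 of 31 were higher and 1 lower in KO cells. Cybb stood at 2744 ± 196.2 CPM in KO against 1517 ± 251.8 CPM in WT cells (0.88 ± 0.123, adjusted p = 0.00581). The cytokine gene Il6 (1.40 ± 0.256, adjusted p = 0.0126) and Ifnb1, the interferon-β gene (1.27 ± 0.309, adjusted p = 0.0312), were higher, and Nos2, which encodes inducible nitric oxide synthase, was lower (-1.12 ± 0.218, adjusted p = 0.0158). Ifnb1 was listed only in the LPS table, so its LPS response was not tested. At an unadjusted p under 0.05, 8 targets were higher and 2 lower after LPS. Their median was 0.12, against -0.004 over all genes, of which edgeR called 15.1%. Irf1, Irf5 and Irf7 had overlapping levels in the genotypes after LPS. A link between these levels and the targets was not tested.

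The genes most like each member were sought among 11960 genes as the smallest root mean square (RMS) difference of centred log2 CPM over the 12 libraries. Those nearest to Irf7 were Rtp4 (RMS 0.175) and Ifi204 (0.189), both interferon-inducible genes, where the median over all genes was 1.71. Those nearest to Irf1 were Irgm1 (0.139) and Parp14 (0.188), against a median of 2.22. Those nearest to Irf8 were Spry2 (0.235) and Dna2 (0.241), against 1.05, and those nearest to Irf2bpl were Gbgt1 (0.270) and Nck2 (0.314), against 0.905. The nearest to Irf2bp2 were Lyl1 (0.163) and Angptl4 (0.209), against 1.80. For Irf5 they were Cptp and 3110001I22Rik, both at 0.086, and for Irf4 Denn2b and Blzf1, at 0.212 and 0.255. For the flat genes Irf2 (Dennd6a, Cutc), Irf3 (Gtf2a2, Bcas2) and Irf2bp1 (Cd2bp2, Tm9sf2) the distances were 0.041 to 0.077, with medians over all genes of 0.309 to 0.336, since most genes lie close to a flat profile. These likenesses share the libraries and their depth.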

How the data were processed

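The authors prepared stranded libraries (NEBNext Ultra II Directional), trimmed the paired reads with Trimmomatic 0.33, aligned them with HISAT2 to GRCm38 and assembled transcripts with StringTie, per the labels and methods; whether counting used the strand is not given in the sources used here. They deposited whole-number counts per gene in a table for each state, in which every gene had at least 4 counts in 5 or more of 6 libraries. The 12 columns of log2 values and the authors' own fold changes and p-values were not used. Repeated rows (59 and 57) were reduced to a single row per gene. Counts were scaled by TMM, filtered with filterByExpr and tested two-sided with the quasi-likelihood test of edgeR 4.0.16 (R 4.3.3), with Benjamini-Hochberg adjustment over all genes tested and a threshold of 0.05. Genotypes were compared within each state (6 libraries); LPS responses and their difference came from a fit of all 12 libraries on the 16699 genes of both tables. Log2 CPM used a prior count of 2. Error bars of levels are SD and of log2 fold changes SE. Exon lengths and overlaps came from GENCODE M21, promoters from RefSeq. DESeq2 1.42.0 was an alternative. The libraries of each group are separate lines, and no pair agreed within sampling noise. Libraries were numbered alike in both states. Deviations of same-numbered libraries of a genotype correlated at 0.139 to 0.454, in all 6 pairs, against -0.344 to 0.098 between different numbers. The number was therefore taken to pair the states of a line, which the labels and methods do not state. Between genotypes it is only a number, and a replicate block within a state joined lines by that number alone. The test was checked on simulated counts with no libraries standing apart. Their spread was smaller than that of the unstimulated libraries and that of the fit of all 12 libraries. That check therefore does not bear on the unstimulated calls, the LPS responses or their difference between genotypes. The members and lists were chosen with earlier results of these data known. All 10 members are named, and of each list at most 4 genes per comparison, those past the threshold with the smallest p. Irf9 and the unstimulated values of Cxcl10, Ifit1, Isg15, Rsad2, Mx1, Ifit3 and Gbp2 were given outside this rule.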

Additional observations from a re-analysis of the deposited data

Results flagged for a closer look

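The LPS response of Irf8 differed between genotypes by -1.22 on the log2 scale (adjusted p = 0.0195, edgeR quasi-likelihood test of the difference itself). The log2 change was -1.33 in WT and -2.55 in KO cells, and each of the 3 KO lines fell further than each of the 3 WT lines.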

How the results depend on the processing

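Of the 1000 single-gene values recomputed under the alternatives, 903 kept their direction and their side of the threshold. The count of members called unstimulated was 2, where 314 genes were called. It was 4 by DESeq2, where 1721 of 16440 genes were called, and 5 at an unadjusted p under 0.05, which 3232 genes had. With a line left out it ran from 0 to 2, where 7 to 522 genes were called. The fit without the 3 libraries with more antisense counts was chosen after seeing the data. It left WT line 3 as the only unstimulated WT library, so only effect sizes are given from it. The count after LPS was 2, where 2481 genes were called, and 4 at an unadjusted p under 0.05, which 5154 of 16483 genes had. With a line left out it ran from 1 to 3, where 867 to 2245 genes were called. Irf8 was lost without KO line 2 (-0.65, adjusted p = 0.0541) and in the fit with replicate block and length and GC offsets (-0.55, adjusted p = 0.0508). The count for the difference of responses was 1, where 31 of 16535 genes were called. It was 3 by DESeq2 (334 genes) and 3 with the replicate block (288 genes). With the block and the offsets it was 3 (203 genes), and with a term for the antisense libraries 2 (69 genes). At an unadjusted p under 0.05 it was 5 (1475 genes), and with a line left out it ran from 0 to 2 (2 to 41 genes). Where edgeR called 0, 3 to 5 members had an unadjusted p under 0.05. The counts of LPS responses ran from 7 to 8 in WT and 6 to 8 in KO cells. The block changed no call of a member other than those of Irf1 and Irf7.

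Values that changed sign belonged to differences near 0 or not called. Irf2 between genotypes was 0.019 unstimulated with the offsets, with or without the block, and 0.046 after LPS (0.053 with the block). Its LPS response was -0.17 in WT and -0.11 in KO cells by upper-quartile scaling, -0.18 and -0.14 with the offsets, -0.19 and -0.14 with block and offsets, and -0.026 in WT without the antisense libraries. That of Irf2bp1 was -0.14 in WT by upper-quartile scaling, -0.002 with the antisense term, -0.058 without those libraries, and in KO cells 0.33 with the offsets and 0.34 with block and offsets. Without the antisense libraries Irf3 was -0.086 and Irf2bp2 0.033 between unstimulated genotypes, and the differences of responses were 0.13 for Irf3 (0.011 with the antisense term), 0.084 for Irf5 and 0.017 for Irf2bp1. With a line left out, the ranges that crossed 0 were, between genotypes unstimulated, -0.044 to 0.16 for Irf4 and -0.10 to 0.001 for Irf2bp2; after LPS, -0.045 to 0.21 for Irf1, -0.17 to 0.051 for Irf2, -0.08 to 0.19 for Irf7 and -0.62 to 0.012 for Irf2bp2; for LPS responses, -0.035 to 0.17 (WT) and -0.036 to 0.12 (KO) for Irf2 and -0.022 to 0.12 for Irf2bp1 in WT; and for the difference of responses, -0.13 to 0.081 for Irf2, -0.22 to 0.003 for Irf3, -0.15 to 0.003 for Irf2bp1 and -0.59 to 0.046 for Irf2bp2. The cause was not tested. Upper-quartile scaling also ended the call of Irf2bpl in the LPS response of KO cells (0.24, adjusted p = 0.111). The share of called genes that were higher moved with the offsets from 38.9% to 23.7% unstimulated and, for the difference of responses, from 25.8% to 42.9% (43.5% by upper-quartile scaling). The antisense term has no value after LPS, where no library stood apart. With 3 lines per group, an exact permutation test of a single gene cannot give a two-sided p under 0.1.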
